A study of Ovis aries with 62 samples.

Results

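The sheep compared here were Merino ewes of the AUS experiment that ate much or little for their body size. Intake for body size was the dry matter intake (DMI, g/d) divided by live weight (kg) to the power 0.75, so that small and large sheep can be set side by side. Within each of 4 test blocks, the 5 sheep with the highest and the 5 with the lowest value were taken. This gave 20 high intake and 20 low intake sheep, 40 of the 62 sheep in all. Both groups were adult ewes of about 3 years, bred from 4 sires, and carried no other treatment. They had been offered the same mixture of lucerne and oat chaff at 1 fixed multiple of maintenance, so the groups differ in the feed that was eaten and not in the feed on offer. Each sheep gave 1 RNA sequencing library from the full thickness of the ventral rumen wall, and DMI was recorded together with CH4 in respiratory chambers. The labels do not give the sire, and each test below takes the sheep as independent. Sheep oz151 of block 3 was left out because its labeled DMI of 79.5 g/d gives an index of 3.58, and the 21 sheep between the groups were not compared.

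Microbes in the rumen ferment feed to short chain fatty acids and release CH4 on the way. The rumen is lined by a stratified squamous epithelium that takes up these acids, exchanges them against protons and bicarbonate, and turns part of the butyrate into ketone bodies that pass to the blood. Smooth muscle under the epithelium mixes the digesta. Rumen epithelium is known to adapt to the amount and kind of feed, in its papillae as well as in its transport and ketone body enzymes.

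The high intake sheep lay close together and the low intake sheep were widely spread. The index of the high intake sheep ran from 58.8 to 66.2 g/d per kg to the power 0.75 with a median of 64.7, and that of the low intake sheep from 16.6 to 60.8 with a median of 42.3. Over all blocks the low intake sheep reached into the range of the high intake sheep, and within a block the groups could not overlap by construction. The distance between the groups differed by block, with mean differences of 13.3, 20.6, 25.0 and 29.2 in blocks 1 to 4.

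Block 1 was the block in which the groups were least apart. Its highest low intake sheep, at 60.8, lay next to a middle sheep at 61.2, and its lowest high intake sheep, at 63.8, next to a middle sheep at 63.7. In block 2 the corresponding neighbors were 51.6 and 54.7 at the low side and 62.2 and 63.8 at the high side. Those of block 3 lay at 44.7 and 51.3 and at 58.0 and 60.4, and those of block 4 at 41.3 and 41.8 and at 50.7 and 58.8. The lowest sheep of all was oz175 of block 4, which ate 376 g/d.

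**Figure D1:**
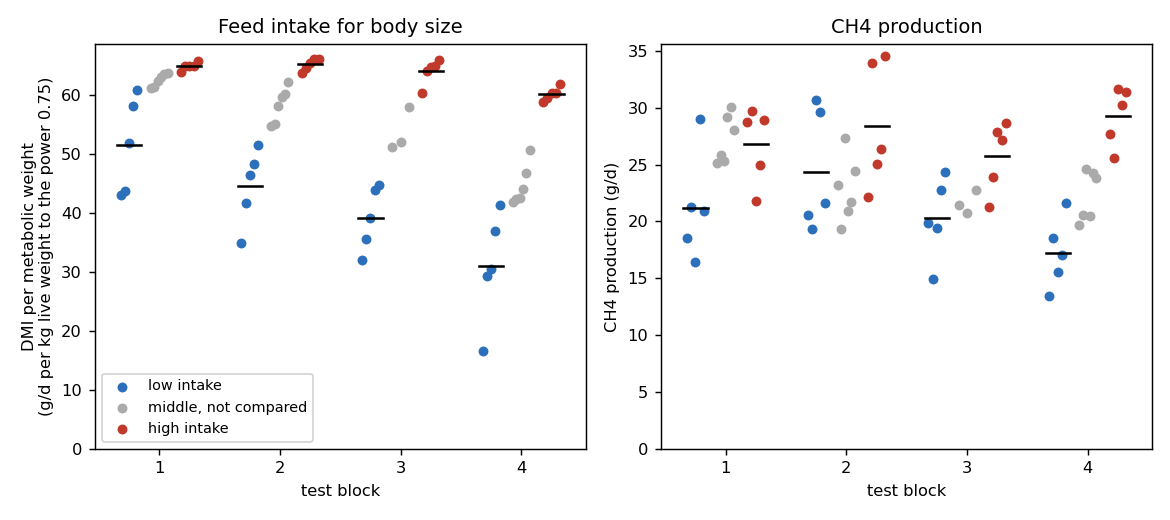
Intake index (left, DMI in g/d per kg live weight to the power 0.75) and CH4 production (right, g/d) of each sheep by test block, with low intake sheep in blue, middle sheep in grey, high intake sheep in red and a black line at the mean of each compared group of 5. High intake sheep sit in a narrow band at the top of each block, from 58.8 to 66.2, while the low intake sheep reach down to 16.6 in block 4.

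The groups differed in feed eaten, as they were chosen to, and were alike in mean body weight. DMI was 1422 ± 174 g/d in high intake sheep and 949 ± 269 g/d in low intake sheep (mean ± SD, n = 20 each), and live weight was 63.2 ± 9.79 and 64.9 ± 8.82 kg. The high intake sheep were lighter on average by 4.10 kg in block 2 and by 6.90 kg in block 3, and heavier by 2.90 and 1.30 kg in blocks 1 and 4. DMI and live weight define the groups and were not tested.

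CH4 production, which the choice of sheep did not use, was higher in the high intake sheep. The paper attributes variation in CH4 production mainly to DMI, on which the groups were chosen, so this difference is not independent of the choice. CH4 production ran from 21.3 to 34.6 g/d with a median of 27.7 in high intake sheep. In low intake sheep it ran from 13.4 to 30.7 g/d with a median of 20.2. The groups overlapped, and the mean difference over the 4 blocks was 6.80 g/d (SE 1.29, 20 against 20 sheep, p = 3e-05 in a 2-sided permutation test within blocks). The difference was above 0 in each block, at 5.60, 4.03, 5.51 and 12.1 g/d in blocks 1 to 4. Exact permutation tests of 5 against 5 sheep gave p = 0.0635, 0.262, 0.0397 and 0.00794 in blocks 1 to 4, where 0.00794 is the smallest p such a test can give. A high intake sheep of block 3, oz224, carries the same labeled CH4 production (23.9 g/d) as the excluded oz151, and the difference stayed between 6.42 and 7.29 g/d when any single sheep was left out.

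CH4 yield, the CH4 produced per kg DMI, went the other way. It was 19.4 ± 1.54 g/kg in high intake sheep and 22.7 ± 4.47 g/kg in low intake sheep, and was lower in the high intake sheep of every block, by 0.906 g/kg in block 1 and by 4.60 g/kg in block 4. DMI stands in both the yield and the index, so this is a description without a test. The highest yield, 35.7 g/kg, was that of oz175.

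No difference in library depth was found. High intake libraries held 4754572 to 10869466 assigned reads and low intake libraries 5297090 to 11675071, a mean difference over blocks of 322166 reads (SE 516195, p = 0.529, permutation test within blocks). The normalization factor of the libraries was lower in high intake sheep in every block, at 0.990 ± 0.0527 against 1.02 ± 0.0501 over all. Levels are given as log2 CPM, where CPM are reads scaled to the size of the library, so a difference of 1 is a doubling. They are shares of a library of mixed tissue, in which fewer cells of a type and less RNA per cell cannot be told apart.

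Markers of the wall's tissue layers were checked next. Of 13 markers of rumen epithelium 11 were measured, of 20 markers of smooth muscle 17, and of 18 markers of fibroblasts and matrix 16, so epithelium and muscle were both well covered. The mean of the epithelial markers ran from 8.39 to 9.95 log2 CPM in high and from 8.94 to 9.80 in low intake sheep, and that of the smooth muscle markers from 8.48 to 11.12 and from 8.89 to 10.96. As a list, the epithelial markers had a median difference of 0.11 (high minus low intake, log2) with 9 of 11 above 0, and the smooth muscle markers one of -0.0033 with 7 of 17 above 0. For endothelium, immune cells and nerve only 1 marker each could be matched by name (MCAM, LY96 and MAP1B), so a share of those cells could not be followed here. In block 1, 7 sheep stood below every sheep of blocks 2–4 in the mean of the study's epithelial differentiation genes. Of these 2 were in the high and 1 in the low intake group, and some of the results below are given without them as well.

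No gene passed the test between high and low intake sheep. Of 16011 genes, 0 (0%) differed at a limma adjusted p under 0.05, and the smallest adjusted p was 0.852, shared by 24 genes. At an unadjusted p under 0.05 there were 705 genes (4.40%), with 385 (2.40%) higher and 320 (2.00%) lower in high intake sheep, and 7728 of 16011 differences were above 0 with a median of -0.0044 on the log2 scale. Scaled to library totals without the normalization factor, 186 genes were higher and 641 lower at that p, with the median of all genes at -0.05. The count was also 0 in limma with precision weights from voom (730 genes at unadjusted p under 0.05), with sample weights (1044 genes) and without the variance trend (708 genes), and with any single sheep left out (580 to 882 genes at unadjusted p under 0.05).

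The intervals show what size of difference these 40 sheep could show. The median SE of a difference was 0.119 log2 units. The 95% interval stayed within 0.5 log2 units of 0, on either side, for 10973 genes (68.5%) and within 1 for 14550 genes (90.9%). Among the 11890 genes with a mean level of at least 3 CPM, these shares were 89.0% and 99.1%. For most well-expressed genes a doubling between the groups therefore lies outside the interval. A difference of 0.25 lies outside it for fewer: 5449 genes (45.8%) of this better measured set had an interval that stayed inside 0.25.

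**Figure D2:**
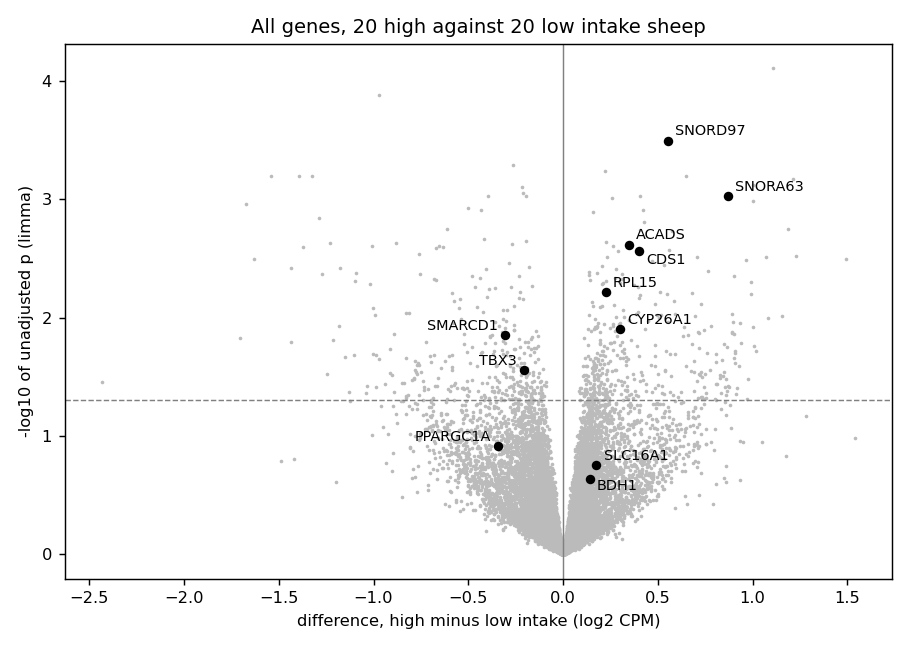
Difference between high and low intake sheep (log2 CPM, horizontal axis) against the -log10 of the unadjusted p from limma (vertical axis) for 16011 genes in grey, with named genes in black and a dashed line at an unadjusted p of 0.05. SNORD97 and SNORA63 lie highest among the named genes, with p = 0.00032 and 0.000951, while SLC16A1 and BDH1 lie below the dashed line.

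The genes with the smallest p are given as values, since none of them passed. Among the 1224 genes with a symbol, the leading ones on the higher side included the small nucleolar RNAs SNORD97 and SNORA63, ACADS, CDS1, RPL15, CYP26A1, RPS27A, RPL31 and the gene labeled EF-1. Several of these belong to protein synthesis, namely RPL15, RPS27A and RPL31 of the ribosome, and snoRNAs guide the chemical modification of ribosomal and other RNAs. On the lower side they included SMARCD1, TBX3, PCM1, SOS1, CBLB, ANTXR1, ZFR, BMPR2 and ZEB2. The genes named on the higher side have intervals that exclude 0 before adjustment, and on the lower side those of ZFR, BMPR2 and ZEB2 include it.

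SNORD97, a snoRNA of the box C/D class, which guides 2'-O-methylation, had the smallest p of the genes with a symbol. It lay between 3.17 and 5.47 log2 CPM with a median of 4.02 in low intake sheep and between 3.78 and 5.85 with a median of 4.70 in high intake sheep. The ranges overlapped for the most part, but 17 of the 20 high intake sheep lay above the low intake median. The difference was 0.56 (SE 0.14, 95% interval 0.27 to 0.84, unadjusted p = 0.00032, limma adjusted p = 0.852) and was above 0 in each block, at 0.30, 0.53, 0.71 and 0.68 in blocks 1 to 4.

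SNORA63, a box H/ACA snoRNA, a class that guides pseudouridylation, had the larger difference but also the larger spread. Low intake sheep ran from 4.40 to 8.17 log2 CPM (median 5.42) and high intake sheep from 5.06 to 8.37 (median 6.35). The highest low intake sheep stood far above the others of its group, and 15 of the 20 high intake sheep lay above the low intake median. The difference of 0.87 (SE 0.24, interval 0.38 to 1.36, limma adjusted p = 0.852) was near 0 in block 1, at 0.08, and was 0.82, 1.32 and 1.26 in blocks 2 to 4. SNORA63 belongs to a family of related copies. The paper counted uniquely mapped reads only, so reads that fit more than 1 copy are missing from its value.

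ACADS encodes the mitochondrial short chain acyl-CoA dehydrogenase, the first step in the beta oxidation of butyrate. It ran from 6.88 to 8.36 log2 CPM (median 7.71) in low and from 7.29 to 8.67 (median 8.06) in high intake sheep, with 16 of the 20 high intake sheep above the low intake median. The difference was 0.35 (SE 0.11, interval 0.13 to 0.57, unadjusted p = 0.00243, limma adjusted p = 0.958). It was 0.17 and 0.09 in blocks 1 and 2 and 0.58 and 0.55 in blocks 3 and 4. With the mean of the muscle genes as a covariate, which takes account of the muscle content of each sample, the ACADS difference was 0.31 (unadjusted p = 0.000952), and it was 0.39 without the 7 block 1 sheep.

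CDS1, which makes the CDP-diacylglycerol used for phosphatidylinositol and cardiolipin, ran from 3.28 to 4.44 log2 CPM (median 3.92) in low and from 2.80 to 4.90 (median 4.35) in high intake sheep. High intake sheep held both the lowest and the highest value, and 17 of 20 lay above the low intake median. Its difference was 0.40 (SE 0.13, interval 0.15 to 0.66, limma adjusted p = 0.958), with 0.03 in block 1 and 0.81 in block 3.

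RPL15, a protein of the large ribosomal subunit, ran from 7.92 to 8.72 log2 CPM (median 8.25) in low and from 7.66 to 8.96 (median 8.40) in high intake sheep. The high intake sheep again reached further in both directions, and their 3 lowest values, all of block 1, lay below every low intake sheep. The difference was 0.22 (SE 0.08, interval 0.07 to 0.38, limma adjusted p = 0.990), with -0.06 in block 1 and 0.51 in block 3.

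CYP26A1, which breaks down retinoic acid, a signal that restrains keratinization, ran from 7.55 to 8.96 log2 CPM (median 8.41) in low and from 8.07 to 9.59 (median 8.78) in high intake sheep. The lowest values of the comparison were those of low intake sheep, and 15 of the 20 high intake sheep lay above the low intake median. The difference was 0.30 (SE 0.11, interval 0.07 to 0.53, limma adjusted p = 0.999), at 0.35, 0.03, 0.35 and 0.46 in blocks 1 to 4.

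**Figure D3:**
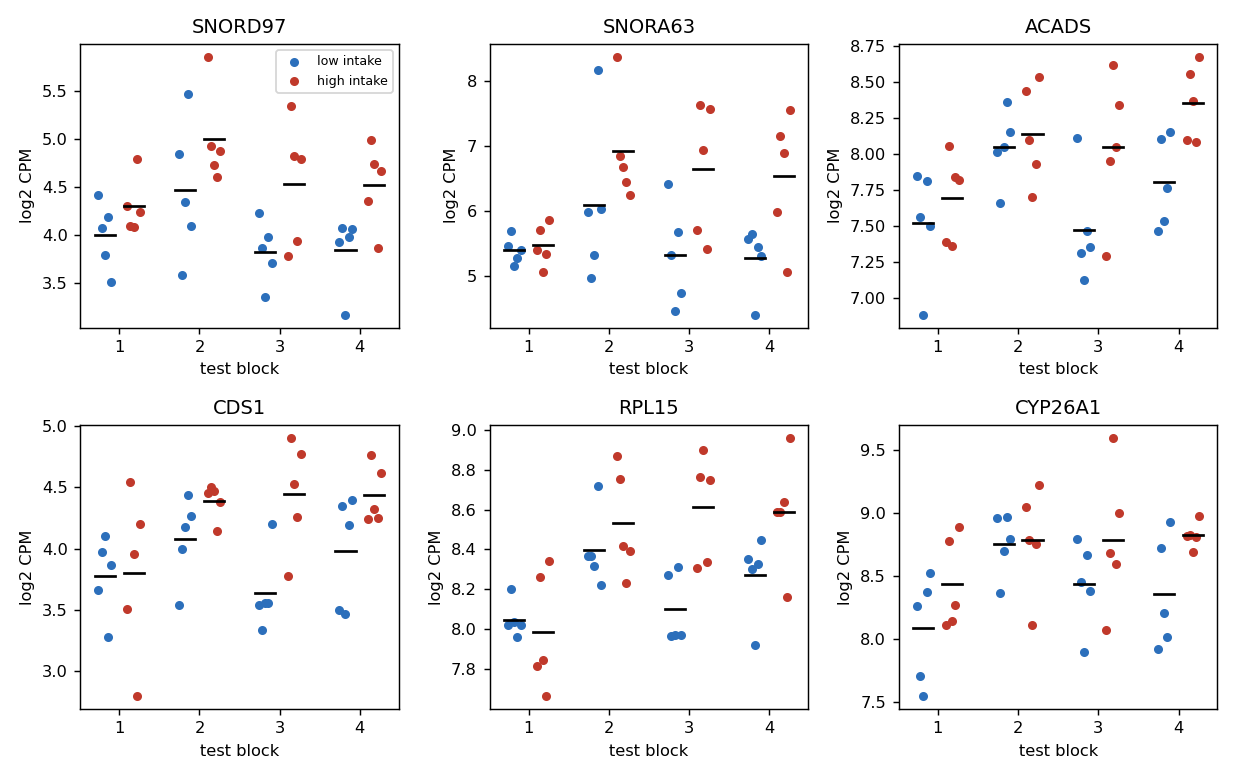
Level (log2 CPM) of 6 genes in each low intake (blue) and high intake (red) sheep by test block, with a black line at the mean of each group of 5 sheep. The groups overlap in most blocks, and for ACADS the means lie further apart in blocks 3 and 4 (0.58 and 0.55) than in blocks 1 and 2 (0.17 and 0.09).

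Of the genes at the lower side, SMARCD1, a subunit of the SWI/SNF chromatin remodeling complex, had a difference of -0.31 (SE 0.12, interval -0.55 to -0.07), which was 0.01 in block 1 and -0.68 in block 3. TBX3, a T-box transcription factor, was at -0.20 (SE 0.09), and CBLB, a ubiquitin ligase that dampens receptor signaling, at -0.26 (SE 0.12). ANTXR1, a receptor that binds matrix proteins, was at -0.29 (SE 0.14). The limma adjusted p was 0.999 for each of these. All of them belong to the study's muscle list described below, and they and PCM1 are among its 6 members at an unadjusted p under 0.05.

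Some genes without a symbol had smaller p than any gene with one. ENSOARG00000010449 ran from -0.73 to 2.34 log2 CPM (median 1.07) in low and from 0.80 to 3.86 (median 2.12) in high intake sheep, with 3 to 38 and 11 to 96 reads per library. The difference of 1.11 (SE 0.25, limma adjusted p = 0.852) was 1.43, 0.49, 1.94 and 0.58 in blocks 1 to 4. ENSOARG00000010794 was lower in high intake sheep by -0.97 (SE 0.23), but rests on 1 to 11 reads per high intake library and 6 to 17 per low intake library. Better covered were ENSOARG00000006821, with a difference of 0.22 (SE 0.06), and ENSOARG00000017078, with -0.26 (SE 0.07), for which 19 of the 20 high intake sheep lay below the low intake median.

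The enzymes that turn butyrate into ketone bodies had small positive differences between the groups, none of which passed. Of 17 genes fixed for ketone body and short chain acyl-CoA metabolism, 12 were measured under a symbol. Of these, 1 (ACADS) was at an unadjusted p under 0.05, against 2.40% of all genes on the higher side, and 11 of 12 differences were above 0. The median difference was 0.08, beside -0.0044 over all 16011 genes and 0.11 over the epithelial markers. It was 0.12 without block 1, 0.15 without block 2 and 0.03 without block 4.

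Along the pathway, the acyl-CoA synthetases differed by 0.04 (ACSF2, SE 0.10) and 0.05 (ACSS1, SE 0.16). The paper presumes that ACSS1 activates acetate and butyrate, and proposes ACSF2 only as a candidate for butyrate. After ACADS, the beta oxidation enzymes ECHS1, an enoyl-CoA hydratase, and HADH, a hydroxyacyl-CoA dehydrogenase, differed by 0.07 (interval -0.09 to 0.24) and 0.05 (-0.18 to 0.28). Both genes annotated as ETFA-like, a subunit of the flavoprotein that takes the electrons of ACADS, had differences of 0.13 and 0.06. The steps next to ACADS in the same chain thus had estimates well below 0.35, although the intervals overlap that of ACADS and the difference between them was not tested.

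In ketone body synthesis proper, ACAT1, which condenses acetyl-CoA, was at 0.19 (SE 0.11, interval -0.02 to 0.41). BDH1, which reduces acetoacetate to beta-hydroxybutyrate, was at 0.14 (SE 0.12, interval -0.09 to 0.37). OXCT1, the enzyme by which tissues other than liver use ketone bodies, was the 1 member with a negative estimate, at -0.09 (SE 0.14).

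By block the values were unlike. The median of the 12 enzymes was -0.03 in block 1 and -0.11 in block 2, but 0.27 in block 3 and 0.28 in block 4, where 10 of 12 were above 0. BDH1 was at -0.15 and -0.02 in blocks 1 and 2 and at 0.29 and 0.43 in blocks 3 and 4. Blocks 3 and 4 are those with the widest distance in intake, and also those in which the muscle list was lower in high intake sheep (below). With the muscle mean as a covariate the differences were 0.09 for BDH1 and 0.12 for the transporter SLC16A1.

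**Figure D4:**
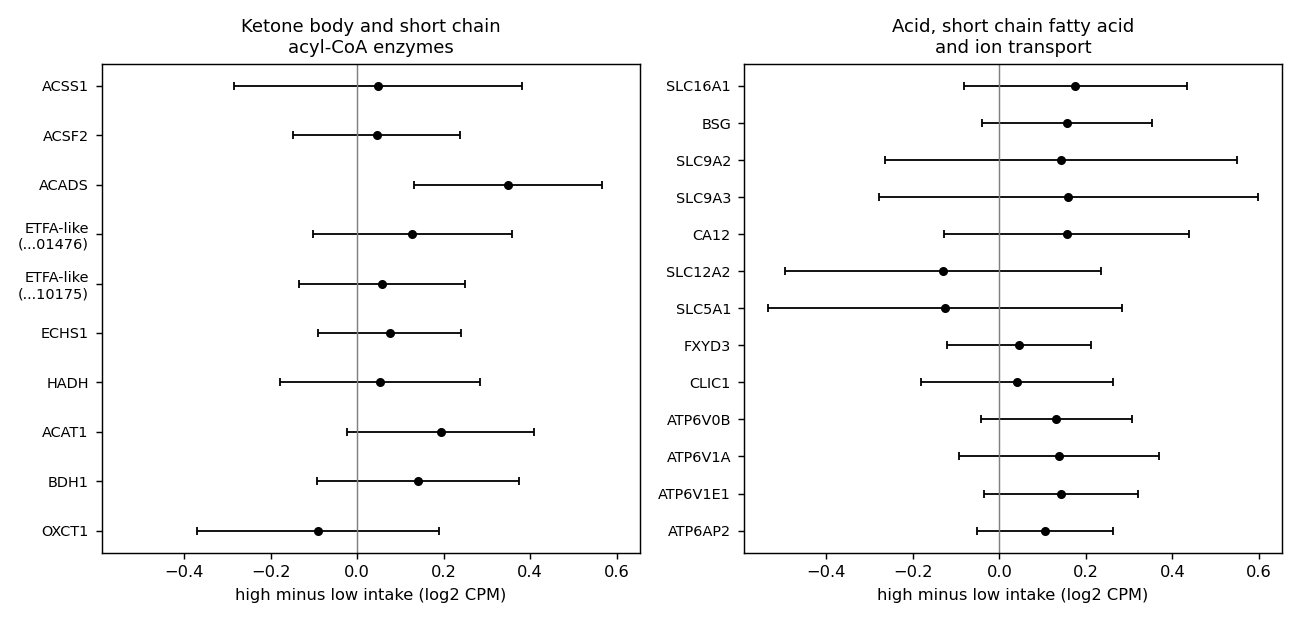
Difference between high and low intake sheep (log2 CPM) with its 95% interval for 10 of the 12 enzymes of ketone body and short chain acyl-CoA metabolism (left) and 13 genes of acid, short chain fatty acid and ion transport (right). Points lie at or above 0 for all but OXCT1, SLC12A2 and SLC5A1, and the interval of ACADS (0.13 to 0.57) is the only one that excludes 0 before adjustment.

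Transport genes gave the same kind of values. Of 29 genes fixed, 13 were measured under a symbol, of which 0 were at an unadjusted p under 0.05 in limma in either direction and 11 had a difference above 0, with a median of 0.14. This median was 0.08 with the muscle mean as a covariate, 0.05 without block 3 and 0.08 without block 4. That of the epithelial markers, 0.11, was 0.08, 0.07 and 0.04 under the same changes. The transport median was higher, at 0.18, without block 1 and without block 2, and 0.19 without the 7 block 1 sheep. Over the 23 alternatives other than leaving out 1 sheep, it lay between 0.05 and 0.22. The epithelial median lay between 0.04 and 0.22 over these alternatives. BDH1, SLC16A1 and CA12 are themselves among the epithelial markers, and the part of epithelial content in the ketone body and transport values was not tested. SLC16A1 (MCT1), which carries short chain fatty acids, lactate and ketone bodies together with protons, ran from 9.17 to 10.58 log2 CPM (median 9.87) in low and from 9.12 to 10.79 (median 10.18) in high intake sheep. Its difference was 0.18 (SE 0.13, interval -0.08 to 0.43, unadjusted p = 0.177, limma adjusted p = 0.999), with -0.05 and -0.04 in blocks 1 and 2 and 0.33 and 0.46 in blocks 3 and 4. BSG, the chaperone that brings this transporter to the membrane, was at 0.16 (SE 0.10).

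The sodium-proton exchangers SLC9A2 and SLC9A3 were at 0.14 (SE 0.20) and 0.16 (SE 0.22) and the carbonic anhydrase CA12 at 0.16 (SE 0.14). Subunits and an accessory protein of the proton-pumping V-ATPase had 0.13 (ATP6V0B), 0.14 (ATP6V1A), 0.14 (ATP6V1E1) and 0.11 (ATP6AP2), with SEs of 0.08 to 0.11. Negative estimates came from SLC12A2, a sodium, potassium and chloride cotransporter, at -0.13 (SE 0.18), and from SLC5A1, the sodium glucose cotransporter, at -0.13 (SE 0.20). The interval of SLC9A3, from -0.28 to 0.60, was among the wide ones of this list.

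When sheep were ranked on DMI without scaling to body size, 15 of 20 sheep of each group stayed the same and several of these differences were larger. SLC16A1 was then at 0.40 (limma unadjusted p = 0.00136) and BDH1 at 0.28 (limma unadjusted p = 0.0221), and the median of the 12 ketone body and acyl-CoA enzymes was 0.23. The median of the transport genes was lower in that split, at 0.10 in place of 0.14. No gene passed in that split either, with 1023 genes at an unadjusted p under 0.05 and a smallest limma adjusted p of 0.111. That ranking takes no account of body size, so intake and size cannot be told apart in it.

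Cytosolic ribosomal protein genes had small differences that were alike in sign. Of 38 measured genes, 5 (among them RPL15, RPS27A, RPL31 and the gene annotated as RPL35-like) were higher at an unadjusted p under 0.05, against 2.40% of all genes, and 37 of 38 differences were above 0 with a median of 0.07. RPS27A, whose product is a fusion of ubiquitin and a ribosomal protein, was at 0.30 (SE 0.12, interval 0.06 to 0.54), and RPL31 at 0.16 (SE 0.07). The gene labeled EF-1, an elongation factor of translation, was at 0.12 (SE 0.05). In blocks 1 to 4 the median of the list was 0.07, 0.05, 0.15 and 0.08, so it was above 0 in block 1 as well, unlike those of the ketone body and transport lists.

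These differences were close in size to the shift that another scaling gives. The median of the ribosomal list was 0.03 when libraries were scaled to their totals alone and 0.04 after quantile normalization. Ribosomal protein genes have many near-identical copies in the genome. The paper counted uniquely mapped reads only, so reads that fit several copies were left out, which can affect single values. Members of such a list rise and fall together across sheep, and the count of members above 0 is not a count of independent results.

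Genes of cell division had lower estimates in high intake sheep, and block 1 made most of that. Of 23 genes of mitosis and DNA replication, 0 were at an unadjusted p under 0.05 in limma and 22 of 23 differences were below 0, with a median of -0.14. In block 1 the median was -0.57 and no gene was above 0, whereas it was -0.07, 0.19 and -0.08 in blocks 2 to 4. The median without block 1 was 0.02. CASC5, a kinetochore protein, was at -0.20 (SE 0.14), PLK1, a mitotic kinase, at -0.20 (SE 0.14) and TOP2A, which untangles DNA, at -0.15 (SE 0.12). MKI67, the usual marker of dividing cells, ran from 4.63 to 8.11 log2 CPM (median 6.08) in low and from 5.42 to 7.55 (median 5.88) in high intake sheep, a difference of -0.19 (SE 0.17, interval -0.53 to 0.16), and it was 0.02 when only the 3 most extreme sheep of each side and block were taken. The 10 replication-dependent histone genes, which share near-identical coding sequence, had a median of -0.08 (-0.50 in block 1), and the study's cell cycle list, chosen in part on these sheep, a median of -0.12 with 41 of 43 below 0.

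Cornification genes, which build the horny layer, spread widely within both groups. Of 30 members 0 were at an unadjusted p under 0.05 in limma and 23 were below 0, with a median of -0.12, and this median was 0.0048 without the 7 block 1 sheep. KRT78, a keratin abundant in this epithelium, ran from 7.77 to 12.34 log2 CPM (median 11.54) in low and from 6.99 to 12.42 (median 11.75) in high intake sheep, and 14 of 20 high intake sheep lay above the low intake median although the mean difference was -0.01 (SE 0.32, interval -0.66 to 0.63). Without the 7 sheep its difference was 0.25 (unadjusted p = 0.0526). The largest negative estimates were those of the cornified envelope gene SPRR2-like2 at -0.42 (SE 0.29), of S100A9 at -0.40 (SE 0.28) and of S100A12 at -0.37 (SE 0.27), the latter both calcium-binding alarmins, with S100A9 at -1.04 in block 4. PLA2G4E, a phospholipase, was at -0.29 (SE 0.17), and LYPD2 stood on the other side at 0.23 (SE 0.17). The study's epithelial differentiation list, chosen in part on these sheep, had a median of -0.04 with 15 of 43 above 0.

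Junction and basal layer genes varied less. Of 11 genes measured, 0 were at an unadjusted p under 0.05 in limma and 10 had a difference above 0, with a median of 0.05. This median was -0.0025 after quantile normalization and 0.11 without the 7 block 1 sheep. PERP, a desmosome protein, was at 0.15 (SE 0.09), the adhesion molecule EPCAM at 0.19 (SE 0.13), the desmosomal cadherin DSG3 at 0.07 (SE 0.11) and the gap junction protein GJA1 at 0.08 (SE 0.10). E-cadherin (CDH1) was at -0.01 (SE 0.08, interval -0.18 to 0.16). PERP, EPCAM, DSG3 and CDH1 are also among the epithelial markers, so this list and the marker list are not separate results.

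Muscle genes had estimates a little below 0. Of the 647 genes of the study's muscle list, chosen in part on these sheep, 0 were higher and 6 lower at an unadjusted p under 0.05, against 2.00% of all genes on the lower side, and 511 were below 0, with a median of -0.06. The median was 0.12 and 0.04 in blocks 1 and 2 and -0.30 and -0.11 in blocks 3 and 4, where the medians of the ketone body and transport lists were above 0. The contractile and structural genes fixed as smooth muscle markers were nearer to 0, with a median of -0.0033 and 7 of 17 above 0. MYH11, the smooth muscle myosin heavy chain, ran from 12.57 to 14.23 log2 CPM (median 13.48) in low and from 12.13 to 14.65 (median 13.44) in high intake sheep, with a difference of -0.02 (SE 0.19, interval -0.40 to 0.37). Its blocks gave 0.36, 0.01, -0.28 and -0.16.

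Matrix genes followed muscle by block. The 16 fibroblast and matrix genes had a median of -0.04, at 0.06 and 0.16 in blocks 1 and 2 and at -0.28 and -0.16 in blocks 3 and 4. The small proteoglycans OGN and BGN were at -0.17 (SE 0.14 and 0.17), the collagen gene COL6A1 at -0.12 (SE 0.15) and COL1A1, the main fibrillar collagen, at 0.04 (SE 0.17, interval -0.30 to 0.39). With the muscle mean as a covariate the median of the matrix list was 0.03. That of the muscle list was -0.0017 in the same fit. A value near 0 was fixed in advance there, because the covariate is the mean of that same list.

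No gene that responds to fasting or to glucocorticoids passed between the groups. Of 17 measured, 0 were at an unadjusted p under 0.05 in limma and 14 were below 0, with a median of -0.09. The median of this list was 0.16, -0.06, -0.37 and -0.24 in blocks 1 to 4, and in block 1 14 of 17 were above 0. SGK1, a kinase induced by glucocorticoids that promotes sodium uptake, was at 0.26 (SE 0.14, interval -0.01 to 0.54) and above 0 in all 4 blocks, at 0.29, 0.07, 0.45 and 0.23. PPARGC1A, a coactivator of mitochondrial and fasting genes, ran from 3.25 to 5.26 log2 CPM (median 4.32) in low and from 1.64 to 5.55 (median 3.92) in high intake sheep, a difference of -0.34 (SE 0.22, interval -0.78 to 0.10). FBXO32, a ubiquitin ligase of muscle wasting, was at -0.06 (SE 0.16, interval -0.38 to 0.26), with 0.42 in block 1 and -0.40 in block 3, and IGFBP4, which binds insulin-like growth factors, at -0.20 (SE 0.15). Insulin, growth and energy signaling genes had a median of -0.06 with 5 of 16 above 0, and the glucose transporter SLC2A12 was at -0.25 (SE 0.15). By block the median of the signaling list was 0.13, 0.06, -0.34 and -0.14.

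The medians of other groups of genes lay between -0.09 and 0.08, beside -0.0044 over all genes. The 30 genes of the TCA cycle and respiratory chain had a median of 0.0062 (-0.03 when scaled to library totals), with ATP5G3 of ATP synthase at 0.14 (SE 0.08), COX11, a cytochrome oxidase assembly factor, at 0.11 (SE 0.07) and SDHA of succinate dehydrogenase at 0.06 (SE 0.06). The 28 detoxification and redox enzymes had a median of 0.08, with ALDH1A1, which makes retinoic acid from retinal, at 0.17 (SE 0.11) and ADH5, which clears formaldehyde, at 0.13 (SE 0.08). Genes of protein entry and folding in the endoplasmic reticulum had a median of 0.0028. Of the chromatin regulators 26 of 27 were below 0, against 8283 of all 16011 genes, with a median of -0.08 and the Mediator subunit MED12 at -0.14 (SE 0.10). By block their median was 0.14, -0.09, -0.31 and -0.05, and in block 1 all 27 were above 0. None of the TCA, detoxification, endoplasmic reticulum and chromatin lists had a member at an unadjusted p under 0.05 in limma. Type I interferon response genes had a median of -0.09 with 4 of 15 above 0, from the antigen presentation gene TAP1 at 0.29 (SE 0.21) to the antiviral GTPase MX1 at -0.32 (SE 0.36).

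Metabolic clusters that the study formed in part on these same sheep gave small positive medians, and are no independent evidence of a direction. The lipid and oxo-acid metabolism list had 3 of 41 genes higher at an unadjusted p under 0.05, against 2.40% of all genes (ACADS, CDS1 and FAH, the last enzyme of tyrosine breakdown, at 0.16, SE 0.08), with 38 of 41 above 0 and a median of 0.10. In blocks 1 to 4 its median was -0.04, -0.04, 0.24 and 0.23, with 13, 15, 39 and 40 of 41 above 0. General metabolism had 2 of 42 higher and a median of 0.04, and other metabolism 17 of 354 (median 0.05, 273 above 0), against the same 2.40%. The 2 of general metabolism are RPS27A and RPL31, already counted among the ribosomal genes. Those of other metabolism include SNORD97, SNORA63, RPL15 and CYP26A1, described above, so these genes are not further results. The 14 metabolic genes that the study tied to CH4 had 2 higher at that p (ACADS and RPL35-like) and a median of 0.14. Their median was -0.06, -0.01, 0.31 and 0.23 in blocks 1 to 4, with 5, 6, 14 and 14 of 14 above 0. CH4 production itself differed between the intake groups, so for these 14 genes intake and CH4 cannot be told apart here.

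**Figure D5:**
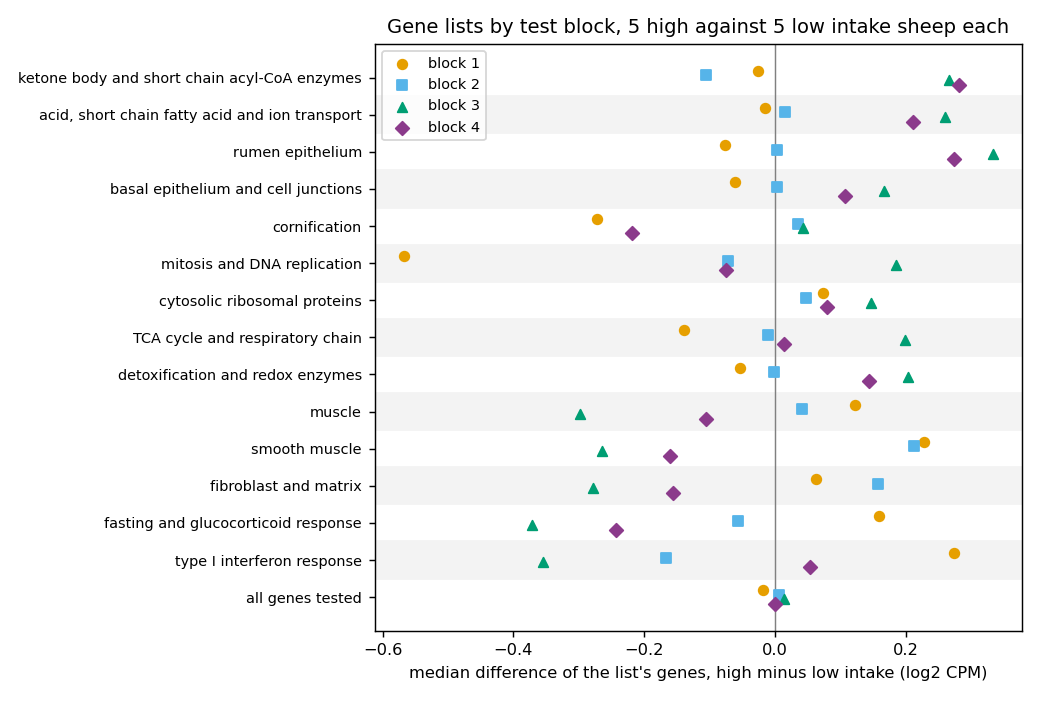
Median difference between high and low intake sheep (log2 CPM) over the genes of each list, separately in test blocks 1 to 4 with 5 against 5 sheep each. The rumen epithelium and junction lists share genes. Ketone body, transport, rumen epithelium and junction lists lie near or below 0 in blocks 1 and 2 and between 0.11 and 0.33 in blocks 3 and 4, muscle and matrix lists lie on the other side in blocks 3 and 4, and all genes together stay within 0.02 of 0.

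Whether the difference between intake groups depends on the block was tested gene by gene. In limma, 0 of 16011 genes had a group by block interaction at an adjusted p under 0.05, the smallest adjusted p was 0.409, and 670 genes (4.18%) were at an unadjusted p under 0.05. For ACADS the unadjusted interaction p was 0.257 and for SNORA63 0.251. The split of the lists between blocks 1 and 2 and blocks 3 and 4 is therefore a description of 5 against 5 sheep in each block. Epithelial markers had list medians of 0.33 and 0.27 in blocks 3 and 4 and smooth muscle markers of -0.26 and -0.16, and the part of tissue composition in the values of each block was not tested.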

How the data were processed

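The authors sequenced ribosomal RNA depleted, stranded libraries. They used TopHat with Bowtie2 for alignment to the sheep genome and voom for the deposited log2 CPM of 16011 genes. HTSeq counted uniquely mapped reads against Ensembl models plus added epidermal ones. Per the submitters' processing notes edgeR and limma were also used. These deposited log2 values were taken as they are. Reads per library were recovered from them (100% whole, tolerance 0.01 reads, offset 0.5), and symbols came from the study's supplementary tables (1224 genes). A gene without a symbol there could not enter a pathway or marker list. Low values rest on few reads.

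Groups were formed as described above and compared with limma 3.58.1 in R 4.3.3 (block as a factor, variance trend, Benjamini-Hochberg over all genes, threshold 0.05). Intervals are 95% and cover the spread between sheep. Permutation tests (100000, within blocks) used numpy in Python. Plots used matplotlib.

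The sheep, lists and tests were chosen with earlier results of these data known. Named genes are the 10 with the smallest p on each side among genes with a symbol, the leading members of each list, at most 2 unnamed IDs a side, and a fixed panel of 10. LYPD2, S100A9, CDH1, MX1 and genes given along a pathway were added for their role or value. Some genes that this rule names are not reported here. Alternatives changed the covariates, the choice of sheep, the weights, the scaling and the filter. The script was tested on simulated data.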

Additional observations from a re-analysis of the deposited data

How the results depend on the processing

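No gene passed at a limma adjusted p under 0.05 in any of 63 alternatives, 40 of which left out 1 sheep. The smallest adjusted p was 0.111 (DMI not scaled), and 0.344 with 1 sheep left out. The 705 genes at an unadjusted p under 0.05 became 1215 without block 1, 414 without block 4, 406 among the 9939 genes that reached 3 CPM in every library, and 1126 without the 7 block 1 sheep (an alternative added after seeing the data, as was keeping only the 18 low intake sheep under an index of 55), and lay between 580 and 882 with 1 sheep left out. With library totals alone, 186 genes were higher and 641 lower, in place of 385 and 320, with a median of all genes at -0.05. The CH4 difference was 5.60 g/d in block 1 and 4.03 g/d in block 2 alone, where it did not pass (exact permutation p = 0.0635 and 0.262), and 6.42 to 7.29 g/d with 1 sheep left out. The cause of these shifts was not tested, other than that fewer genes or sheep enter.

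Of 30 genes named with values under all alternatives, 25 kept their sign throughout, ACADS and both snoRNAs among them, and 5 did not. MKI67 (-0.19) was 0.020 with 3 sheep a side and 0.0035 per SD of the index (10.6) over 61 sheep. KRT78 (-0.01) was 0.063 with all sheep split at the middle, 0.25 with DMI per kg live weight, 0.0071 in the regression, 0.20 without block 1, 0.14 with sample weights and 0.25 without the 7 sheep. FBXO32 (-0.06) was 0.0079 with the muscle covariate, 0.049 without block 3 and 0.020 without block 4, and MYH11 (-0.02) 0.084, 0.072 and 0.033. COL1A1 (0.04) was -0.0096 with the middle split, -0.020 without block 2 and -0.0059 with sample weights. With 1 sheep left out KRT78 ran from -0.15 to 0.17, MYH11 from -0.079 to 0.050 and COL1A1 from -0.034 to 0.11. No paired analysis was possible because the sheep carry no shared replicate numbers.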

Other observations

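The 21 middle sheep, which entered no comparison, lay near the low intake sheep for the leading genes. Their median was 7.68 log2 CPM for ACADS, beside 7.71 in low and 8.06 in high intake sheep, 4.07 for SNORD97, beside 4.02 and 4.70, and 5.39 for SNORA63, beside 5.42 and 6.35. For RPL15 the middle median, 8.37, lay nearer to that of the high intake sheep (8.40) than to that of the low (8.25). The middle medians of MYH11 and MKI67 lay above those of both groups, at 13.86 for MYH11, beside 13.48 in low and 13.44 in high intake sheep, and 6.38 for MKI67, beside 6.08 and 5.88. All of these medians pool the blocks and take no account of block. Of the 7 block 1 sheep that stood apart, 4 were middle sheep. In a regression on the index over 61 sheep the ACADS difference was 0.14 per SD of the index (10.6), with an unadjusted p of 0.00301, and the middle split gave 0.17 with an unadjusted p of 0.0742.

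Sheep oz175, which ate least for its size among the compared sheep, had 7.46 log2 CPM of ACADS, below the low intake median of 7.71, and 9.21 of COL1A1, the highest low intake value. Sheep oz151, whose labeled intake was lower still, had 7.81 of ACADS, inside the range of both groups.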
